A study of Mus musculus with 12 samples.

Results

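Mouse ear skin was compared 4 h after imiquimod cream on 7 single-colour arrays, of 12 arrays in the series: 3 arrays of mice without Tlr7 against 4 arrays of mice with Tlr7. The members were taken from the treatment and genotype labels alone, so no measured value chose them. The Tlr7-deficient side holds 1 array of Tlr7-/- mice and 2 arrays of Tlr7-/-Tlr9-/- mice, and the Tlr7-carrying side holds 1 array of wild-type (WT) mice, 1 of Tlr9-/- mice and 2 of Card14-/- mice. All were C57BL/6J mice whose ears had received a single 62.5 mg dose of cream with 5% imiquimod (IMQ). The 5 untreated arrays, 1 per genotype, gave the same split without cream, with Tlr7-/- and Tlr7-/-Tlr9-/- against WT, Tlr9-/- and Card14-/-. Each array held whole ear skin RNA pooled from 6 to 8 mice, and the labels do not say whether repeat arrays of a genotype share a pool. Repeat arrays were therefore averaged, and SEs and p-values measure only the spread between the genotypes of a side. That spread includes any effect of their other knockouts. No group received cream without imiquimod, and neither age nor sex of the mice is stated in the labels.

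TLR7 is a receptor of endosomes in plasmacytoid dendritic cells, macrophages and other immune cells that binds single-stranded RNA and small imidazoquinolines such as imiquimod. It signals through MyD88 to NF-kB and to IRF7, which turns on type I interferon genes. Secreted interferon then acts on neighbouring cells through a complex of transcription factors that contains IRF9 and binds a promoter element called the interferon-stimulated response element and raises a set of antiviral genes. TLR9, the receptor for CpG DNA, uses the same adaptor, and CARD14 is a scaffold of keratinocytes that signals to NF-kB. The hair follicles of the same skin run through cycles of growth and rest, and hair keratins, keratin-associated proteins and inner root sheath proteins are made in growing follicles.

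The values are log2 normalized signals of 24064 genes, each read on 1 probe. A gene is called parted where every array of one side lies beyond every array of the other, and the gap is the distance between the nearest arrays of the 2 sides on the log2 scale. Tlr7 itself was 4.02 in Tlr7-/- and 5.85 and 5.68 in the Tlr7-/-Tlr9-/- arrays, against 8.12 in WT, 7.38 in Tlr9-/- and 8.08 and 8.11 in Card14-/- after IMQ (difference of the side means -2.97 ± 0.58 SE, gap 1.53). Its probe, at X 163742863 to 163742922 on the mm9 build, was well above background on 2 of the 3 deficient arrays. Tlr7 was also parted in untreated skin, with 5.49 in Tlr7-/- and 5.34 in Tlr7-/-Tlr9-/- against 7.94 in WT, 7.36 in Tlr9-/- and 7.69 in Card14-/-. Tlr9 overlapped between the sides (difference -0.01 ± 0.16 SE). Its probe read 11.33 and 11.28 in Tlr7-/-Tlr9-/- and 11.05 in Tlr9-/- after IMQ. The other IMQ arrays had 11.18 in Tlr7-/-, 11.39 in WT and 11.27 and 11.31 in Card14-/-. The probe thus showed no clear loss of Tlr9 RNA in the arrays labelled Tlr9-/-. Card14 differed by 0.44 ± 0.64 SE, with 9.68 and 9.63 in the Card14-/- arrays below the other 5 IMQ arrays.

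Some sex-linked genes were parted too, and both Tlr7-/- arrays stood apart in them. Xist, the RNA that coats the inactive X chromosome of females, was 1.95 in Tlr7-/- and 10.45 and 10.45 in Tlr7-/-Tlr9-/-, against 12.24 in WT, 12.78 in Tlr9-/- and 11.87 and 12.04 in Card14-/- after IMQ. The Y-linked gene Eif2s3y was 11.04 in Tlr7-/- and 11.01 and 11.02 in Tlr7-/-Tlr9-/-, against 10.33, 10.39, 10.52 and 10.57 in the Tlr7-carrying arrays, so it was parted higher with a gap of 0.44. Ddx3y, also Y-linked, was parted higher with a gap of 0.19, while Uty and Kdm5d overlapped. In untreated Tlr7-/- skin the order was turned, with 12.89 for Xist and 2.03 for Eif2s3y, against 10.27 for Eif2s3y in untreated Tlr7-/-Tlr9-/- and 10.38 to 10.50 in the Tlr7-carrying arrays. The IMQ Tlr7-/- array thus had Y-linked RNA with Xist below background, and the untreated Tlr7-/- array had Xist with Eif2s3y below background. The other IMQ arrays had both. A difference between the 2 Tlr7-/- arrays therefore also sets pools of opposite sex-linked RNA against each other. The part of this in the results below was not tested. The main counts are also given without the Tlr7-/- arrays. A gene parted on all arrays stays parted when an array is left out, so those counts cannot fall and do not test this part.

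Both sides were present on both slides. Slide 1 held the IMQ arrays of Tlr7-/-, WT and Tlr9-/- and the untreated arrays, and slide 2 held those of Tlr7-/-Tlr9-/- and Card14-/-. Repeat arrays of a genotype had a median SD of 0.0469 in Tlr7-/-Tlr9-/- and 0.0475 in Card14-/-, while the Tlr7-carrying genotypes had a median SD of 0.248 among themselves. The repeat arrays therefore add little to the spread between genotypes. The 75th percentile of the processed signal ran from 616 to 703 on the Tlr7-deficient and 527 to 779 on the Tlr7-carrying IMQ arrays. On the untreated arrays it was higher, from 1070 to 1236. Skin markers were in place: Krt14 of basal keratinocytes was 18.2 to 18.3 on each side, and Krt10 of the upper epidermis was 17.9 to 18.2 in Tlr7-deficient and 18.0 to 18.2 in Tlr7-carrying arrays. Of the 28 cell type markers measured apart from those of hair follicles and sex, 1 was parted each way. That is near the shares of all genes tested, 2.58% lower and 4.74% higher. The 2 markers were Plin1 of adipocytes, higher in Tlr7-deficient skin, and Retnlg of neutrophils, lower.

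Without Tlr7, treated skin had lower signals of antiviral interferon-stimulated genes, of several chemokines that draw monocytes and T cells, and of the proteins that build the hair shaft and its inner sheath. In all, 621 genes (2.58% of those tested) were parted lower and 1140 (4.74%) were parted higher in the Tlr7-deficient IMQ arrays. The lower genes stood further apart. A gap of at least 1 was found for 114 genes (0.474%) lower and for 0 genes higher, and a gap of at least 2 for 49 lower and 0 higher. The median gap of the 1140 higher genes was 0.05 and their highest gap was 0.83. With the repeat arrays averaged, limma (lmFit and eBayes) on 5 genotype values called 0 genes after Benjamini-Hochberg adjustment. The lowest adjusted p was 0.9999, and 585 genes (2.43%) had an unadjusted p under 0.05, 346 of them lower. Without the Tlr7-/- IMQ array, 2241 genes were parted lower and 4469 higher, 152 and 16 of them with a gap of at least 1, and without the Tlr9-/- array 206 were lower with such a gap. Leaving out both Tlr7-/-Tlr9-/- arrays gave 221 lower and 92 higher with a gap of at least 1. Every size below is therefore a description of these arrays, with the standard error (SE) from that fit.

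**Figure D1:**
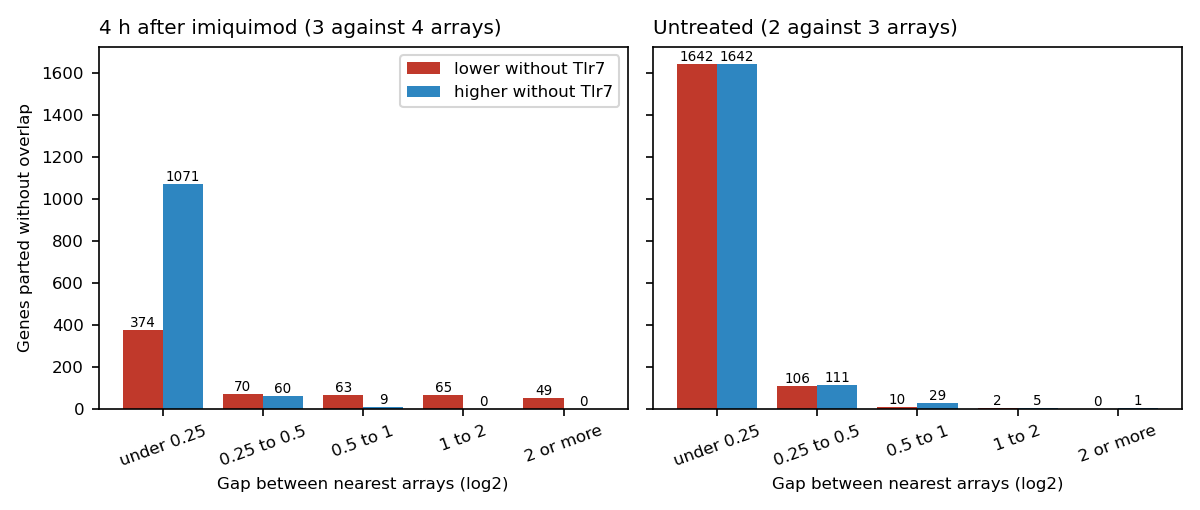
Number of genes (vertical axis) parted without overlap, by the gap between the nearest arrays of the 2 sides (log2, horizontal axis), after imiquimod on the left and untreated on the right. Red bars are genes lower and blue bars genes higher without Tlr7; after imiquimod 114 lower and 0 higher genes have a gap of at least 1, and untreated skin has 2 lower and 6 higher.

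The 114 genes with the widest split fell into a few groups. There were 35 keratin-associated protein genes and 10 keratins, and 30 other probes lay within 200 kb of a keratin or keratin-associated protein probe. Another 14 were on the interferon-stimulated lists and 3 were the chemokines Cxcl10, Ccl4 and Ccl12, beside Tlr7 and Xist. Of the 114, 40 lay on chromosome 11 (35.1%, against 7.69% of all genes tested) and 25 on chromosome 16 (21.9%, against 3.27%). Of the 20 left over, several belong beside these groups by what is known of them. Tgtp2, an interferon-inducible GTPase (-2.15), Ifi209 of the Ifi200 family (at least 4.05-fold lower) and Gprc5d, an orphan receptor of hair shaft cells (-4.30), were named after their values were seen.

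Interferon-stimulated genes were the first of the 2 large groups. The lists hold 73 genes, of which 70 had a probe and 65 passed the signal filter. Of these, 48 were parted lower and 1 higher (background 2.58% and 4.74%), and their median difference was -0.97, against 0.04 over all genes tested. The median was -0.90 on slide 1, where Tlr7-/- was set against WT and Tlr9-/-, and -0.94 on slide 2, where Tlr7-/-Tlr9-/- was set against Card14-/-. Without the Tlr7-/- array 53 were parted lower, a count that could not fall. In bulk skin, fewer cells of a type and less RNA per cell cannot be told apart.

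Ifit1, an antiviral protein that binds foreign RNA ends, had the widest gap of all named genes. It was 5.66 in Tlr7-/- and 5.81 and 5.80 in Tlr7-/-Tlr9-/-, against 10.75 in WT, 9.13 in Tlr9-/- and 10.02 and 10.03 in Card14-/-, a gap of 3.32 and an 18.8-fold difference (log2 -4.24 ± 0.49 SE). Its probe lies at 19 34723827 to 34723886 on mm9. The 3 deficient arrays lay close together, near the lower end of the 5.72 to 6.72 of the untreated arrays. Ifit3, Ifit3b and Ifit2 of the same locus were lower by 2.21 ± 0.46, 1.99 ± 0.43 and 1.74 ± 0.47 SE, with gaps of 1.34, 1.08 and 0.76. In the IFIT list 4 of 5 genes were parted lower.

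All 4 genes of the list of Mx proteins, viperin and Cmpk2 were parted lower, with gaps of 2.03 or more. Mx1, annotated in RefSeq as a transcribed pseudogene, was 5.30 in Tlr7-/- and 5.17 and 4.96 in Tlr7-/-Tlr9-/-, against 9.61 in WT, 8.22 in Tlr9-/- and 8.42 and 8.51 in Card14-/- (-3.58 ± 0.46 SE). Its relative Mx2 was lower by 3.54 ± 0.55 SE. Rsad2, which encodes viperin, an enzyme that makes a chain-terminating nucleotide, was 5.57 in Tlr7-/- and 5.25 and 5.89 in Tlr7-/-Tlr9-/-, against 10.02, 7.92, 9.23 and 9.34 in the WT, Tlr9-/- and Card14-/- arrays. Cmpk2, the kinase beside Rsad2 on chromosome 12, was lower by 3.00 ± 0.51 SE. In each of these genes WT was highest and Tlr9-/- lowest on the Tlr7-carrying side.

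Promoters of 4 genes of this group are printed because all 4 were parted lower with wide gaps. They are the 250 bases before the annotated start, 5′ to 3′ on the gene's strand, from RefSeq on GRCm38.p6, with each match to the response element motif in capitals. The motif searched was GAAA, any 2 bases (NN) and GAAA again, on both strands, and matches may overlap each other. Ifit1 lies at chr19:34640639-34640888 (+), Isg15 at chr4:156200819-156201068 (-), Cxcl10 at chr5:92348890-92349139 (-) and Rsad2 at chr12:26456453-26456702 (-).
Ifit1: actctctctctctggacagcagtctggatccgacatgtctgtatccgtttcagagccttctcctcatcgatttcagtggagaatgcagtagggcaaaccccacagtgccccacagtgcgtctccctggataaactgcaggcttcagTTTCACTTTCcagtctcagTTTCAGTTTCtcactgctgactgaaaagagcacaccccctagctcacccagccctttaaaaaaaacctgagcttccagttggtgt
Isg15: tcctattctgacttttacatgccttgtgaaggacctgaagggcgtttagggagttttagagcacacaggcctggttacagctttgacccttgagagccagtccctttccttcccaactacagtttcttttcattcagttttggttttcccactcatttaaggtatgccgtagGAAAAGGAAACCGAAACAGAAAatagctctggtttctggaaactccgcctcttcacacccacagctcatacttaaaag
Cxcl10: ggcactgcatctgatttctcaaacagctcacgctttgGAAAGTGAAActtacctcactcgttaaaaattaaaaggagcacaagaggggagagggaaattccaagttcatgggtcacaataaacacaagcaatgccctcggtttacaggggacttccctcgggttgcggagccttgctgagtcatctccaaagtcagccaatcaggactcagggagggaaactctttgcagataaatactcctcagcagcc
Rsad2: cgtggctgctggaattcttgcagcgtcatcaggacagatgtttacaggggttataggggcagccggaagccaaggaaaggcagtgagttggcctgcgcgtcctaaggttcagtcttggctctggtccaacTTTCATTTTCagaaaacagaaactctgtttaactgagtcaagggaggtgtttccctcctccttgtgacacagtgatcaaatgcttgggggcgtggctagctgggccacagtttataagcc

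The Ifit1 window held 2 matches, beginning 104 and 85 bases before the start, and the Isg15 window held 3 overlapping matches in 1 run. Cxcl10 and Rsad2 held 1 match each. Over all genes with a promoter in the table, 3.46% of 27025 held the motif in this window, and 3.22% of the 14101 tested genes did. The share was 9.46% of the 423 parted lower with a promoter and 2.20% of the 772 parted higher. Among genes parted lower with a gap of at least 1 it was 11 of 78 (14.1%), made up of 5 of the 9 interferon-stimulated genes and 3 of the 35 keratins and keratin-associated proteins, with 3 others. A match is a description of letters and not a binding site.

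Of the oligoadenylate synthetase family, which senses double-stranded RNA, 3 of 6 measured genes were parted lower. Oasl1 was 7.43 in Tlr7-/- and 7.10 and 7.26 in Tlr7-/-Tlr9-/-, against 11.17 in WT, 9.40 in Tlr9-/- and 10.45 and 10.42 in Card14-/- (-3.03 ± 0.54 SE). Oasl2 was lower by 1.97 ± 0.42 SE, and Oas2 by 1.12 ± 0.47 SE with a gap of 0.23. The GTPases that respond to both interferon types had 10 of 12 genes parted lower, led by Iigp1 (-2.30 ± 0.49 SE) and Ifi47 (-2.10 ± 0.36 SE). The mean of this list was not higher after IMQ than untreated in every Tlr7-carrying genotype. IMQ minus untreated was 1.66 in WT and 0.98 in Card14-/- but -0.33 in Tlr9-/-. In the deficient genotypes it was -0.27 in Tlr7-/- and -0.81 in Tlr7-/-Tlr9-/-. Gbp4, a guanylate-binding protein, had -1.62 ± 0.56 SE. Gbp8 was below background on all 3 deficient arrays and overlapped the other side, at least 1.92-fold lower by its bound.

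Isg15, the ubiquitin-like protein of this response, was 10.37 in Tlr7-/- and 9.88 and 9.88 in Tlr7-/-Tlr9-/-, against 13.37 in WT, 11.92 in Tlr9-/- and 12.65 and 12.67 in Card14-/- (-2.52 ± 0.46 SE). The protease that removes it, Usp18, was lower by 2.22 ± 0.29 SE with a gap of 1.72. In that list of conjugation genes 4 of 8 were parted lower, with Herc6 and Isg20 at -0.61 and -0.18. Among sensors and signalling genes 20 of 23 were parted lower, mostly by less: Rtp4 by 1.93 ± 0.41 SE, Parp14 by 1.35 ± 0.31 SE and Slfn8 by 1.28 ± 0.25 SE. Irf7, the factor that carries the TLR7 signal to interferon genes and is itself interferon-induced, was 11.45 in Tlr7-/- and 11.39 and 11.28 in Tlr7-/-Tlr9-/-, against 13.19 in WT, 12.004 in Tlr9-/- and 12.52 and 12.53 in Card14-/-. Slfn4 stood out in 1 array, with 7.21 in Tlr7-/- against 2.15 and 2.29 in Tlr7-/-Tlr9-/- and 2.01 to 2.80 in the Tlr7-carrying arrays, and it was well above background only in Tlr7-/-. Of the Ifi200 and Ifi44 genes, 3 of 7 were parted lower, with Ifi44 at -1.44 ± 0.37 SE, Ifi204 at -0.76 and Ifi35 at -0.34. Ifi27l2a was the interferon-stimulated gene parted higher, by 0.37 ± 0.21 SE with a gap of 0.01.

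The list of interferons and their receptors did not part, with 0 of 9 measured genes lower and 0 higher. The probes for Ifnb1, Ifna2, Ifna4 and Ifng were too dim for the filter, so a difference in them was not detectable at this signal. In the list of the endosomal TLR pathway 2 of 17 genes were parted lower, Tlr7 and Irf7, and 2 were parted higher, Tlr8 and the kinase Irak1 (0.23). Tlr3, the receptor for double-stranded RNA, had -0.60 ± 0.19 SE and overlapped. None of the 9 measured plasmacytoid dendritic cell markers was parted, and the marker Siglech was 15.07 to 15.43 in Tlr7-deficient and 14.98 to 15.84 in Tlr7-carrying arrays.

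**Figure D2:**
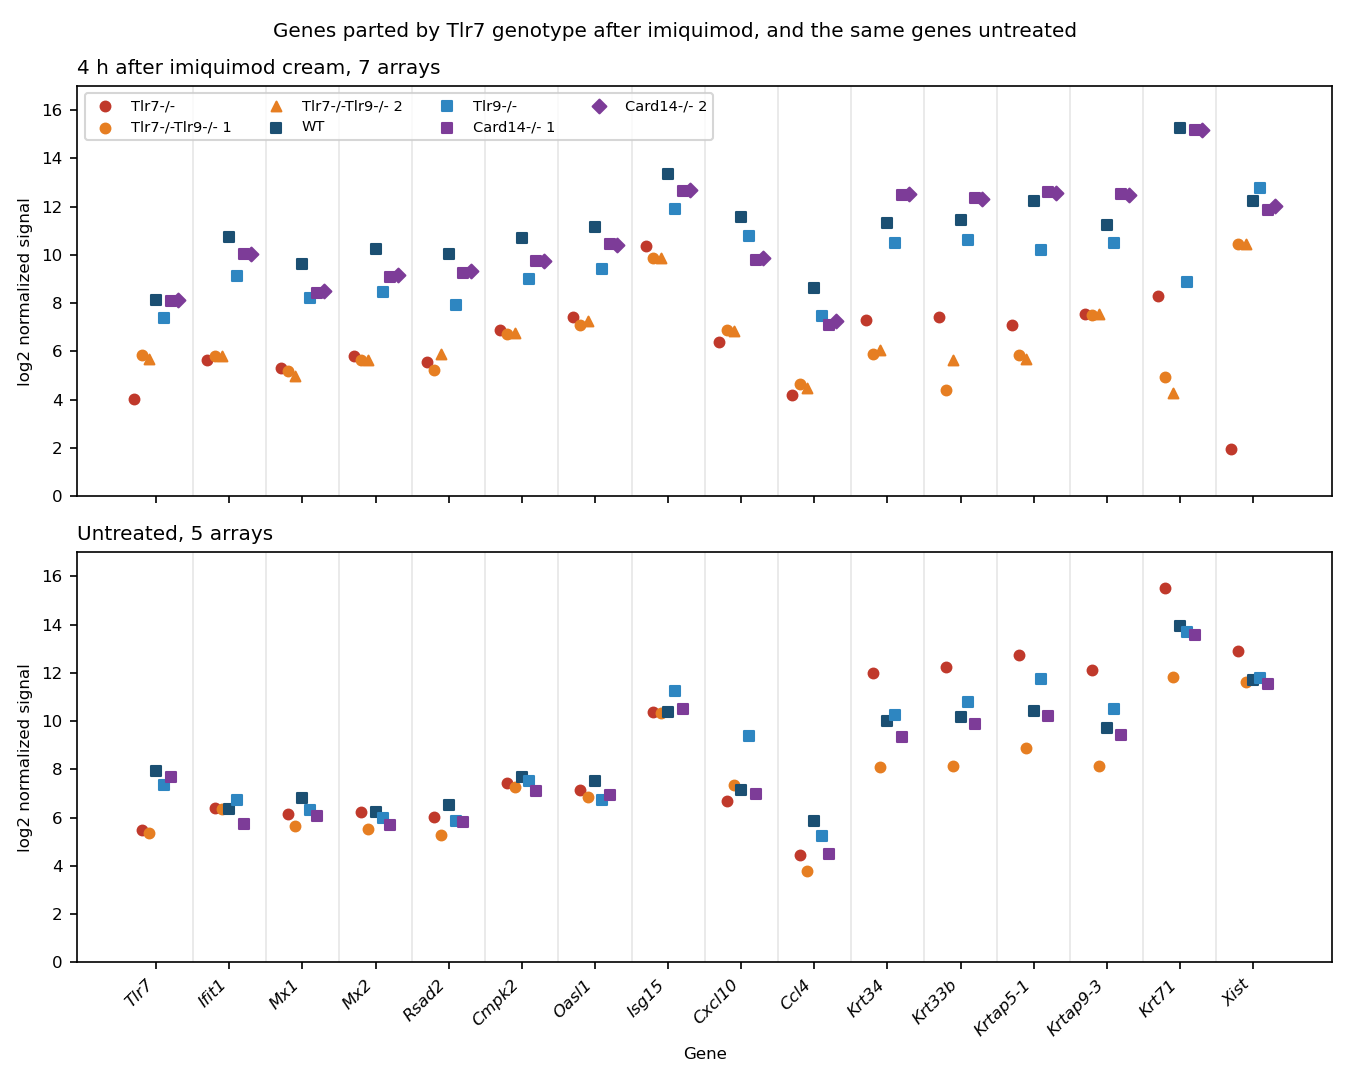
Log2 normalized signal (vertical axis) of 16 genes (horizontal axis) in each array, after imiquimod above and untreated below, with 1 colour per genotype and a second symbol for the repeat array. In the upper panel the red and orange arrays without Tlr7 lie below the blue and purple arrays with Tlr7 for each gene shown; in the lower panel this holds for Tlr7, Isg15 and Ccl4.

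Several chemokines were parted lower. Cxcl10, which draws CXCR3-bearing T cells and is induced by interferon, was 6.40 in Tlr7-/- and 6.89 and 6.83 in Tlr7-/-Tlr9-/-, against 11.59 in WT, 10.78 in Tlr9-/- and 9.80 and 9.88 in Card14-/- (17.2-fold, -4.11 ± 0.54 SE, gap 2.91). Here Card14-/- and not Tlr9-/- was lowest on the Tlr7-carrying side. Cxcl9, another CXCR3 ligand, overlapped, at 5.85 to 6.12 in the deficient arrays and 6.12 to 8.41 in the others. The untreated Tlr9-/- array had 9.40 for Cxcl10 and 9.07 for Cxcl9, above the other untreated arrays. In the CXCR3 ligand list 1 of 3 genes was parted lower. The remaining member, Cxcl11, is annotated in RefSeq as a transcribed pseudogene. It overlapped, at 16.89 to 17.36 in the deficient arrays and 16.75 to 17.54 in the others.

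Chemokines of the CC family that draw monocytes or T cells were parted too. Ccl4 was 4.20 in Tlr7-/- and 4.63 and 4.47 in Tlr7-/-Tlr9-/-, against 8.63 in WT, 7.45 in Tlr9-/- and 7.09 and 7.25 in Card14-/- (-3.38 ± 0.48 SE), and was well above background on 1 of the 3 deficient arrays. Ccl12, Ccl7 and Ccl2 were lower by 1.67 ± 0.25, 1.28 ± 0.26 and 0.86 ± 0.20 SE, with gaps of 1.10, 0.86 and 0.54. Ccl3 did not follow, with 7.91 in Tlr7-/- and 4.88 and 4.69 in Tlr7-/-Tlr9-/-, against 6.62 to 7.21 in the Tlr7-carrying arrays. The 2 Tlr7-deficient genotypes thus lay on either side of the carrying ones in this gene.

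Hair shaft and sheath genes were the other large group. Their lists hold 55 genes, of which 52 passed the filter, 45 were parted lower and 0 higher, against 2.58% and 4.74% of all genes. The median difference was -3.59, or -2.72 on slide 1 and -4.79 on slide 2. Without the Tlr7-/- array 47 were parted lower, a count that could not fall. By list, 11 of 13 hair shaft keratins, 26 of 29 keratin-associated proteins and 8 of 10 inner root sheath genes were parted lower. Over all symbols of the keratin-associated protein family, 45 of 53 measured genes were parted lower and 0 higher, with a median of -3.25. The keratins as a whole had 20 of 51 lower and 1 higher, with a median of -0.39, and epidermal Krt14, Krt1 and Krt10 overlapped.

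Krt34, a type I keratin of the hair shaft, had the widest gap among them. It was 7.28 in Tlr7-/- and 5.88 and 6.04 in Tlr7-/-Tlr9-/-, against 11.32 in WT, 10.50 in Tlr9-/- and 12.48 and 12.51 in Card14-/- (28.1-fold, -4.81 ± 0.71 SE). Krt33b was 7.45 in Tlr7-/- and 4.42 and 5.65 in Tlr7-/-Tlr9-/-, against 11.43, 10.63, 12.37 and 12.33 in the WT, Tlr9-/- and Card14-/- arrays. In this family Card14-/- was highest and Tlr7-/-Tlr9-/- lowest. Krt33a (-4.60 ± 0.82 SE), Krt35 (-5.39 ± 1.21 SE) and the type II partners Krt86 (-4.33 ± 0.66 SE) and Krt87 (-4.48 ± 0.72 SE) followed the same order. Of the 3 deficient arrays, Krt87 was well above background on 1 and Krt35 on 2.

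The keratin-associated proteins cross-link hair keratins in the shaft, and lie in clusters of near-identical genes, so that probes of different members can share targets. Krtap5-1 was 7.09 in Tlr7-/- and 5.85 and 5.68 in Tlr7-/-Tlr9-/-, against 12.22 in WT, 10.19 in Tlr9-/- and 12.60 and 12.57 in Card14-/- (-5.24 ± 0.86 SE). Krtap9-3 was 7.56 in Tlr7-/- and 7.49 and 7.56 in Tlr7-/-Tlr9-/-, against 11.23 in WT, 10.50 in Tlr9-/- and 12.52 and 12.50 in Card14-/-, so that both deficient genotypes lay close together. Krtap28-13, Krtap17-1, Krtap11-1, Krtap4-7, Krtap13-1 and Krtap12-1 had differences from -6.24 to -4.41, and Krtap28-13 and Krtap12-1 were well above background on 1 of the 3 deficient arrays. Krtap26-1 was below background on all 3 deficient arrays and at least 33.5-fold lower. Vsig8, a membrane protein of the hair shaft, had -4.75 ± 0.84 SE.

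The inner root sheath genes were parted by narrower gaps, with Tlr9-/- near the Tlr7-deficient arrays. Krt71, a sheath keratin, was 8.30 in Tlr7-/- and 4.96 and 4.26 in Tlr7-/-Tlr9-/-, against 15.26 in WT, 8.88 in Tlr9-/- and 15.16 and 15.16 in Card14-/- (-6.65 ± 2.41 SE, gap 0.58). Krt25 (-5.76 ± 2.08 SE) and Padi3, an enzyme that modifies sheath proteins (-4.90 ± 1.89 SE), had gaps of 1.01 and 0.79. Krt26 was below background on all 3 deficient arrays, at least 7.68-fold lower. The mean of the 10 sheath genes was 6.92 in Tlr7-/- and 6.17 and 6.09 in Tlr7-/-Tlr9-/-, against 12.04 in WT, 7.46 in Tlr9-/- and 12.54 and 12.53 in Card14-/-. Regulators and markers of the follicle itself were split less, with 5 of 16 parted lower. Among them Krt75, a keratin of the companion layer, had -1.62 ± 0.47 SE, and Gsdma2 lay below background on the 3 deficient arrays. The bound for Gsdma2 was 0.95-fold, so a lower level was not shown for it. The others were the transcription factors Lef1 (-0.85), Hoxc13 (-0.72) and Lhx2 (-0.71), all known from growing follicles.

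**Figure D3:**
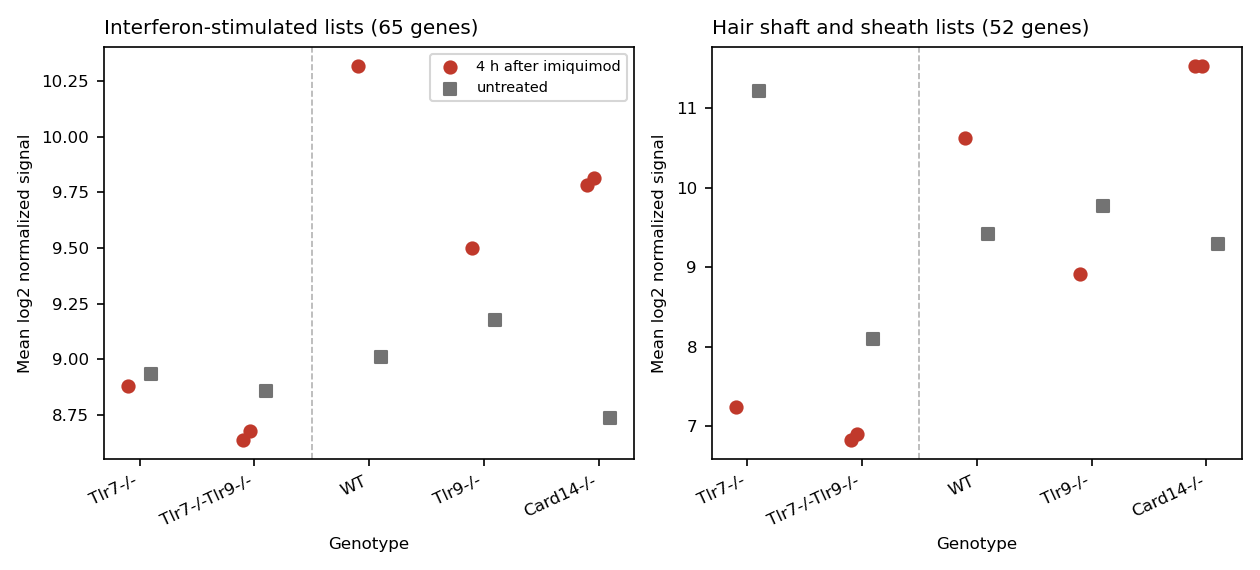
Mean log2 normalized signal (vertical axis) of the measured interferon-stimulated genes (left) and hair shaft and sheath genes (right) by genotype (horizontal axis), with 1 red circle per array after imiquimod, 1 grey square per untreated array, and Tlr7-deficient genotypes left of the dashed line. After imiquimod the deficient arrays are lowest in both panels; untreated interferon-stimulated means lie between 8.73 and 9.18, while untreated hair means run from 8.09 in Tlr7-/-Tlr9-/- to 11.2 in Tlr7-/-.

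The untreated arrays separate these 2 groups from each other. The mean of the 65 interferon-stimulated genes was 8.88 in Tlr7-/- and 8.64 and 8.68 in Tlr7-/-Tlr9-/-, against 10.32 in WT, 9.50 in Tlr9-/- and 9.78 and 9.81 in Card14-/- after IMQ. In untreated skin it was 8.93 in Tlr7-/- and 8.86 in Tlr7-/-Tlr9-/-, against 9.01 in WT, 9.18 in Tlr9-/- and 8.73 in Card14-/-, with no split. The IMQ mean minus the untreated mean was -0.06 in Tlr7-/- and -0.20 in Tlr7-/-Tlr9-/-, against 1.31 in WT, 0.33 in Tlr9-/- and 1.07 in Card14-/-. Hair genes already differed widely between untreated genotypes, but in another order. Their mean was 11.2 in untreated Tlr7-/- and 8.09 in untreated Tlr7-/-Tlr9-/-, the highest and the lowest of the 5, against 9.42 in WT, 9.78 in Tlr9-/- and 9.30 in Card14-/-. The IMQ mean minus the untreated mean of the hair genes was -3.97 in Tlr7-/- and -1.23 in Tlr7-/-Tlr9-/-, against 1.20 in WT, -0.86 in Tlr9-/- and 2.24 in Card14-/-. Each genotype had its own untreated pool, so a difference between pools in the stage of their hair follicles was not tested. The untreated arrays were all on slide 1, so IMQ minus untreated crosses slides in Tlr7-/-Tlr9-/- and Card14-/- but not in the other genotypes. In Tlr7-/- it also sets pools of opposite sex-linked RNA against each other. The part of slide and of sex-linked RNA in these values was not tested.

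Over all genes, the untreated arrays did not show the same split. In untreated skin 1760 genes (7.31%) were parted lower and 1788 (7.43%) higher without Tlr7, with 2 against 3 arrays in place of 3 against 4. Without the untreated Tlr7-/- array, with 1 against 3 arrays, the counts were 4958 lower and 5628 higher. On the 5 genotype values after IMQ, the same layout of 2 against 3, the counts were 999 lower (4.15%) and 1954 higher (8.12%). With a gap of at least 1 those counts were 125 lower and 6 higher after IMQ, and 2 lower and 6 higher untreated. Of the 621 genes parted lower after IMQ, 28 (4.51%, and 0.116% of all genes) were parted lower and 36 (5.80%) higher in untreated skin. Of the 1140 parted higher, 62 (5.44%, and 0.258% of all genes) were parted higher and 102 (8.95%) lower. Together, 90 genes (0.374%) were parted the same way. These shares stand beside a background of 7.31% lower and 7.43% higher. Of the 114 genes with a gap of at least 1, 3 were parted lower untreated, Tlr7, Ccl4 and Isg15, the last 2 of these with untreated gaps of 0.05 and 0.01. The 114 had a median difference of -3.51 after IMQ and 0.09 untreated. Limma called 0 genes in untreated skin (lowest adjusted p = 0.266, 653 at an unadjusted p under 0.05), and 0 for the difference between the IMQ and the untreated split (lowest adjusted p = 0.9996, 757 at an unadjusted p under 0.05).

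**Figure D4:**
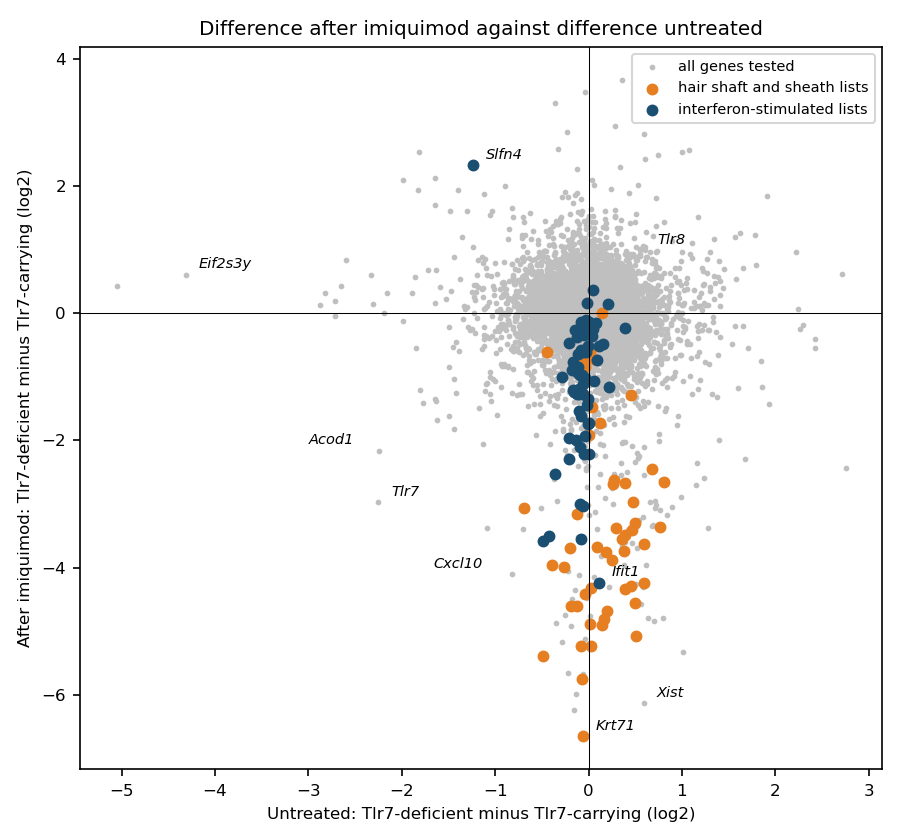
Difference of the side means, Tlr7-deficient minus Tlr7-carrying (log2), after imiquimod (vertical axis) against untreated (horizontal axis), with 1 point per gene; interferon-stimulated genes are dark blue, hair shaft and sheath genes orange and all genes tested grey. Most coloured genes lie below 0 on the vertical axis, down to -4.24 (Ifit1) and -6.65 (Krt71), with untreated medians of -0.06 and 0.14, while Tlr7 is low on both axes.

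In the interferon-stimulated lists 4 of 65 genes were parted lower and 1 higher in untreated skin, with a median of -0.06. Over all genes tested, 7.31% were parted lower and 7.43% higher there, so these counts do not exceed the background. Isg15 and Irf9 were the 2 parted lower in both, and were named after their values were seen. Irf9, a subunit of the interferon-activated complex, was 11.12 in Tlr7-/- and 11.09 and 11.14 in Tlr7-/-Tlr9-/-, against 11.82, 11.53, 11.73 and 11.72 after IMQ, while its 5 untreated values all lay between 11.07 and 11.21. Of the 52 hair genes, 0 were parted in untreated skin in either direction, with a median of 0.14. Their untreated mean was highest in Tlr7-/- and lowest in Tlr7-/-Tlr9-/-, an order that leaves little room for parting.

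Beside Tlr7, 5 more genes lower in both conditions were named by the smaller of their IMQ and untreated gaps. Fpr2, a formyl peptide receptor of neutrophils and monocytes, was 6.06 in Tlr7-/- and 6.08 and 5.99 in Tlr7-/-Tlr9-/-, against 8.14 in WT, 6.98 in Tlr9-/- and 7.23 and 7.36 in Card14-/-. Its untreated values were 5.57 and 5.42 in the deficient arrays, against 6.49, 5.90 and 5.83 in WT, Tlr9-/- and Card14-/-. Acod1, the enzyme of activated macrophages that makes itaconate, had -2.16 ± 0.59 SE after IMQ and -2.24 untreated, with an untreated gap of 0.08. It was well above background on 2 of the 3 deficient IMQ arrays and 1 of the 2 untreated ones. The untreated size is therefore uncertain. Tlr1, a partner of TLR2, was below background on the 3 deficient IMQ arrays and at least 1.87-fold lower. Ptpn22, a phosphatase of immune cells, and Slc28a2, a nucleoside transporter, differed by -0.22 and -0.44 after IMQ. Among genes higher in both were Wnt11, a secreted signalling protein (0.58 after IMQ, 0.75 untreated), the histone genes H3c11 (0.68 and 0.34) and H2ac13 (0.66 and 0.33), Clspn, a replication checkpoint protein (0.60 and 0.37), and Spdya, a cell cycle activator (0.55 and 0.40). The other probe of Spdya did not differ after IMQ.

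A near neighbour of Tlr7 was among the genes higher in both conditions. Tlr8, a related endosomal receptor whose probe lies 63.5 kb from that of Tlr7 on the X chromosome, was 6.28 in Tlr7-/- and 6.35 and 6.28 in Tlr7-/-Tlr9-/-, against 5.37 in WT, 5.00 in Tlr9-/- and 5.29 and 5.78 in Card14-/- (0.99 ± 0.20 SE). Untreated, it was 5.91 and 5.90 in the deficient arrays, against 5.35, 5.24 and 5.32 in WT, Tlr9-/- and Card14-/-. Its other probe had 0.56 after IMQ and was not parted. Within 10 Mb of the Tlr7 probe, 73 genes were measured, and 1 was parted lower and 4 higher after IMQ (6.85%, against 7.32% of all genes). Besides Tlr7 and Tlr8 these were Map7d2 (0.55), Rai2 (0.17) and Sms (0.20), and Sms was parted lower in untreated skin, by 0.09 with a gap of 0.0029.

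Genes parted higher without Tlr7 had a median difference of 0.22, and most had narrow gaps. Ubd, a ubiquitin-like modifier, had the widest gap among the higher genes named, with 6.82 in Tlr7-/- and 6.36 and 6.34 in Tlr7-/-Tlr9-/-, against 5.48 in WT, 5.74 in Tlr9-/- and 5.19 and 5.40 in Card14-/- (1.08 ± 0.22 SE, gap 0.60). Klf1, a transcription factor of red cell precursors, was below background on all 4 carrying arrays and at least 5.07-fold higher, but the repeat arrays of Tlr7-/-Tlr9-/- had 4.46 and 7.88 and disagreed by more than most genes. Zfp583, a zinc finger gene, was likewise below background on the carrying side, at least 1.64-fold higher. Dgki, a diacylglycerol kinase, Fabp12, a fatty acid-binding protein, Tvp23a and Plin5, a lipid droplet protein, were higher by 0.77, 0.70, 0.44 and 0.50. Plin5 and Eif2s3y were parted the opposite way in untreated skin, with untreated gaps of 0.04 and 0.11. Among other named genes that turned round were Ampd2, Rhbdl1, Prr29 and Dnajc10, with 0.15 to 0.32 after IMQ and -0.25 to -0.12 untreated. The other probe of Prr29 and 1 of the 2 others of Ampd2 had a value of the opposite sign.

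Sebaceous gland and cholesterol genes were the list with the largest number parted higher, 6 of 16, with 1 lower and a median of 0.20. Over all genes tested 4.74% were parted higher and 2.58% lower. The share parted higher was larger among the neutrophil chemokines, with 2 of 3 measured. Elovl3, which makes long fatty acids of sebum, was 13.85 in Tlr7-/- and 13.84 and 13.86 in Tlr7-/-Tlr9-/-, against 13.48, 13.42, 13.39 and 13.31 in the WT, Tlr9-/- and Card14-/- arrays. Lss, lanosterol synthase of the cholesterol pathway, was 12.76, 12.81 and 12.84 in the deficient arrays, against 12.34 to 12.41 in the carrying ones. Their gaps of 0.36 and 0.35 were narrow beside those of the hair genes. Awat1, a wax synthase, and Far2, a fatty acyl reductase, had 0.43 and 0.44, and the other probe of Far2 had -0.72. Elovl3 was parted lower untreated. Of the glucocorticoid and fasting genes 3 of 14 were parted higher, with Angptl4, an inhibitor of lipoprotein lipase, at 0.60 ± 0.23 SE, Fkbp5 at 0.36 and Mt1 at 0.22. The gap of Fkbp5 was 0.008, and 1 of its 2 other probes had -0.95.

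**Figure D5:**
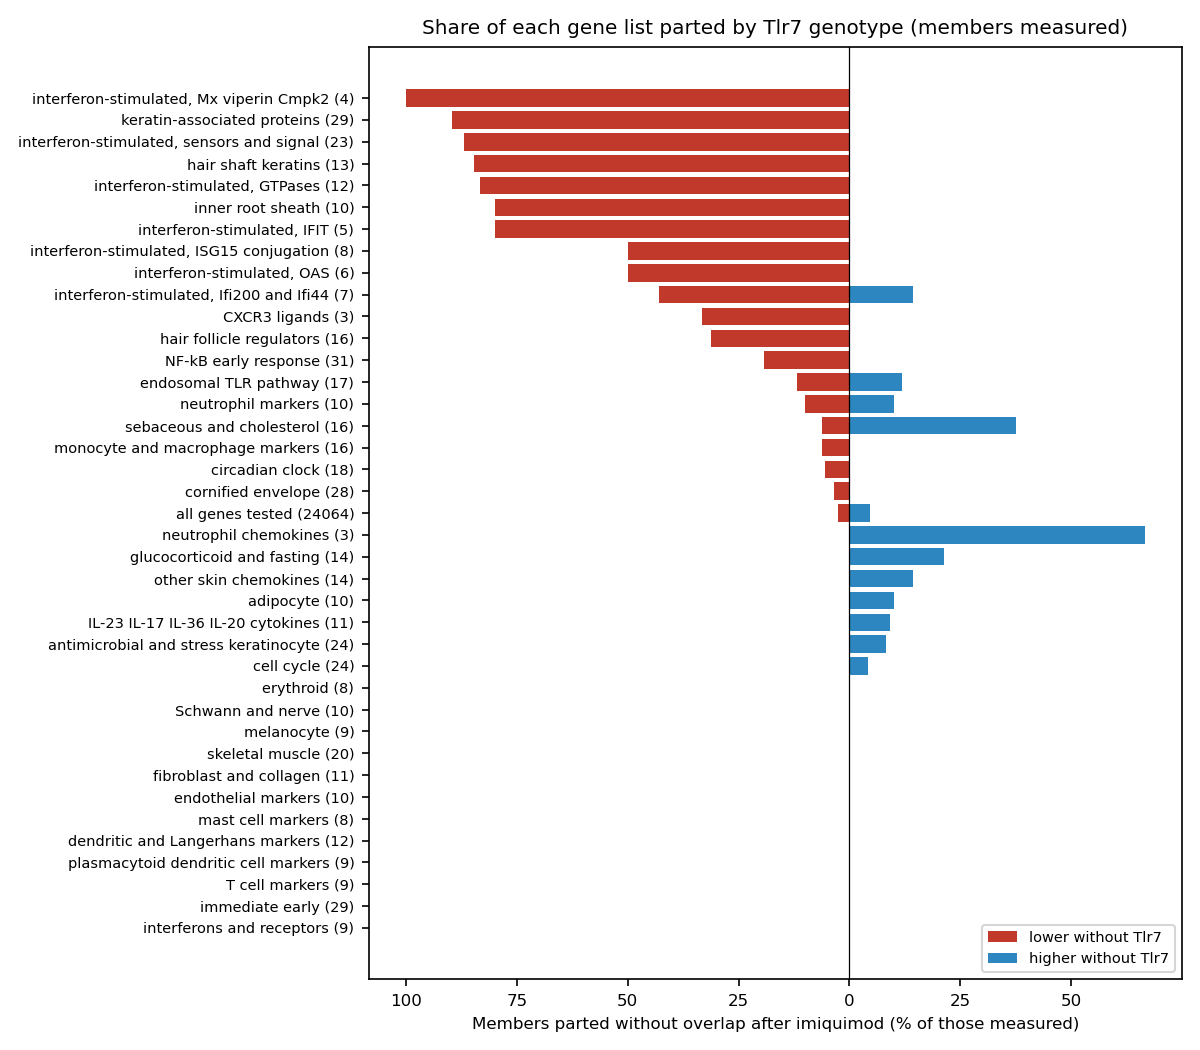
Share of the measured members of each gene list (vertical axis, number measured in brackets) parted without overlap after imiquimod, in percent (horizontal axis), with red bars to the left for lower and blue bars to the right for higher without Tlr7. Interferon-stimulated and hair lists reach furthest left, while all genes tested stand at 2.58% lower and 4.74% higher.

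Of 31 NF-kB early response genes 6 were parted lower and 0 higher, against 2.58% and 4.74% of all genes, with Tnip3, an A20-binding inhibitor, at -0.72 ± 0.23 SE. Each list that follows was parted in 2 members or fewer. Of 29 immediate early genes 0 were parted in either direction. Of 11 measured IL-23, IL-17, IL-36 and IL-20 cytokines 0 were lower and 1 higher, Tslp (0.50), while Il23a, Il17a, Il17c and Il17f were too dim for the filter. Ccl20, which draws CCR6-bearing lymphocytes, was 11.22 in Tlr7-/- and 11.52 and 11.46 in Tlr7-/-Tlr9-/-, against 10.70, 10.26, 10.98 and 10.94 in the carrying arrays, parted higher by a gap of 0.24. It was parted higher untreated too, and of 14 other skin chemokines it and Ccl17 (0.23) were the 2 parted higher. Of the 3 neutrophil chemokines measured, Cxcl1 and Ppbp were parted higher, by 0.33 and 1.04. Of 10 neutrophil markers Retnlg was parted lower by 1.38 ± 0.28 SE and Elane higher by 0.17, while Ly6g overlapped. Of 16 monocyte and macrophage markers 1 was parted lower, Fcgr1, an interferon-inducible Fc receptor (-1.02 ± 0.39 SE). Of 28 cornified envelope genes 1 was parted lower, Sprr4 (-1.49 ± 0.62 SE), and of 24 antimicrobial and stress keratinocyte genes 2 were higher, Epgn (0.43) and Slpi (0.55). Of 24 cell cycle genes 1 was higher, Aurka (0.27), of 18 circadian clock genes 1 was lower, Dbp (-0.16), and of 10 adipocyte genes 1 was higher, Plin1 (0.40). Of the 2 other probes of Plin1, 1 had -0.52. The T cell, mast cell, dendritic and Langerhans, endothelial, fibroblast, melanocyte, Schwann and nerve, erythroid and skeletal muscle lists had 0 members parted.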

How the data were processed

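RNA was read on 12 single-colour arrays, grouped by the sample labels, with slides from the file headers. The deposited scanner files hold each spot's processed signal, an intensity after background subtraction within the array, per the file headers (Agilent Feature Extraction 10.7.3.1, whereas 10.5.1.1 stands in the submitters' processing notes). A log2 table that the authors deposited served as an alternative only. Here the signals were logged (base 2) and quantile normalized across all 12 arrays (limma 3.58.1, R 4.3.3, data.table, version 1.17.8). Of 59305 spots, 772 with an outlier flag were dropped. The filter required 2 arrays well above background, and the brightest probe on average stood for its gene. Names came from the files and RefSeq tables, with 33903 of 56605 probes matched by accession, 9467 by symbol and 488 by synonym. Arrays had 60.1% to 65.7% of their spots well above background, and their small number limits precision.

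Limma was fitted on 5 genotype values (3 residual degrees of freedom), called at an adjusted p under 0.05, and tested on simulated data. Where a side lay below background on all its arrays, "at least" marks a fold computed against each array's lowest signal well above background, or the probe's own if higher. Parted genes were counted without a test. Named are the targeted genes and, among full gene symbols (no clone, Riken, LOC or Gm names) well above background on every array of the higher side, the 15 widest gaps lower and 10 higher, the 6 lower and 6 higher split in both conditions, the 5 split opposite ways, up to 4 members per list with the largest difference, and parted genes within 10 Mb of Tlr7. Named outside that rule, after their values were seen, are Tgtp2, Ifi209, Gprc5d, Irf9, Ifi35, Isg20, Irak1, Lef1, Hoxc13, Lhx2, Ccl3, Lss, Kdm5d, Epgn, Mt1, Elane, Ccl17, Aurka, Dbp and keratinocyte and neutrophil markers. The groups, lists and rules were chosen with earlier results of these data known. The result of 1 gene list is not reported here. Alternatives were other scalings, filters, probe rules, blocks and arrays left out. Python 3.11.15, numpy 2.4.6, pandas 2.3.3 and matplotlib 3.10.9 were used.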

Additional observations from a re-analysis of the deposited data

Results flagged for a closer look

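Among the 4 Tlr7-carrying IMQ arrays, 1 array stood far from the others in 5 gene list means and 5 named genes. Chance flags about 1 in 20 groups, and the repeat arrays of Card14-/- make the other values lie close together. The WT array was highest in the mean of the endosomal TLR pathway (10.5), the antimicrobial and stress keratinocyte genes (10.5) and the monocyte and macrophage markers (11.8). It was also highest in Fabp12 (5.70). The Tlr9-/- array was lowest in the inner root sheath genes (7.46), the fibroblast and collagen genes (13.5), Krtap5-1 (10.2), Krtap28-13 (9.10) and Wnt11 (7.40). In Tvp23a the first Card14-/- array was lowest (5.77).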

How the results depend on the processing

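The 48 interferon-stimulated and 45 hair genes parted lower numbered 47 to 55 and 43 to 49 over the 20 alternatives. These changed a scaling, filter, probe rule, block or array, and the median differences stayed negative. Fits with a block or with 7 separate arrays leave the parted counts unchanged by construction, and leaving arrays out cannot lower them. Under the other scalings, filters and probe rule, which could lower them, the counts were 47 to 50 and 43 to 47. Genes parted with a gap of at least 1 numbered 81 lower under normexp and 93 in the deposited table. Gap limits of 0.5 and 1 left 177 and 114 genes lower and 9 and 0 higher. Parting on 5 genotype values, chosen after seeing the data, gave 999 lower, 1954 higher, 6 higher with a gap of at least 1 and 149 parted the same way untreated. Without a filter, 3 were higher with a gap of at least 1 and 140 the same way untreated. With single arrays left out, the counts ran from 774 to 2241 lower, from 1427 to 4469 higher, from 117 to 206 lower and from 1 to 16 higher with a gap of at least 1, and from 118 to 390 the same way untreated. The highest of each came without Tlr7-/-, except 206, without Tlr9-/-. Fewer arrays part more genes by construction. Without both Tlr7-/-Tlr9-/- arrays the counts were 2936, 3349, 221, 92 and 486, and without both Card14-/- arrays 3615, 5876, 161, 63 and 618. Limma called 0 to 1 gene, 1 without the second Tlr7-/-Tlr9-/- array, and untreated 7 without Tlr7-/-Tlr9-/-, against 0 without any other untreated array.

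The replicate block called 0 genes, with 1086 at an unadjusted p under 0.05. Same-numbered repeat arrays had deviations correlated by 0.06 over 2 pairs, so the numbers do not pair the arrays. With slide as a block, the lowest adjusted p was 0.474.

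Turned in sign, with causes not tested, was Tlr9 (main -0.01), which had 0.019 with 75th percentile scaling, 0.0038 with 7 separate arrays, 4.03e-05 with the replicate block, 0.015 without both Card14-/- arrays, and -0.10 to 0.068 with single arrays left out. Slfn4 ran from -0.16 to 2.55 with single arrays left out, the lowest without Tlr7-/-. Card14 had -0.16 without both Card14-/- arrays, and Ccl3 1.00 and Kdm5d -0.40 without both Tlr7-/-Tlr9-/- arrays. Far2 (-0.14) and Ampd2 (-0.089) turned with the median of probes, and the neutrophil chemokine median without a filter (-0.044).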
